A study of Homo sapiens with 4 samples.

Results

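The 10 genes described here are those of the 5 subunits of the transcription factor NF-κB (NFKB1, NFKB2, REL, RELA and RELB) and 5 feedback genes. NF-κB is known to switch on the feedback genes, which act back on it or its pathway (NFKBIA, NFKBIE, NFKBIZ, TNFAIP3 and BIRC3). All 10 were chosen by name, are 10 of the 58735 genes of the deposited count table, and were all present in it. The cells were MDA-MB-231, an established triple-negative breast cancer line, transduced with a TetOn-H2BeGFP construct that makes a green fluorescent histone when doxycycline is given. Cells of every group received doxycycline at 5 μg/ml over 3 days, took up the dyes Claret and Violet, and were then chased for 12 days, during which each division dilutes a label. Slow-cycling cells were the 1% that had kept most of a label, sorted separately for Claret, for eGFP and for Violet, and Bulk cells were sorted with no gate on fluorescence. Each of these 4 groups gave 1 library, so no difference below has a replicate check.

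NF-κB works as pairs of subunits. In the canonical arm RELA or REL pairs with p50, which is cut from the NFKB1 product, and IκB proteins hold the pair in the cytoplasm until the IKK kinase marks them for destruction. In the non-canonical arm RELB pairs with p52, which is cut from the p100 product of NFKB2 once the kinase NIK is stabilised. NFKBIA and NFKBIE encode the inhibitors IκBα and IκBε, NFKBIZ encodes the nuclear IκBζ, TNFAIP3 encodes the ubiquitin-editing enzyme A20, and BIRC3 encodes the ubiquitin ligase cIAP2, which takes part in the degradation of NIK. MDA-MB-231 cells are known for NF-κB activity without added stimulus.

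Because NF-κB binds a 10-base DNA element, the promoters of the genes were searched for the κB consensus, on both strands, in windows from 250 bases before to 50 bases after each start site (sequences from RefSeq, GRCh38.p14). The table holds windows for 8 of the 10 genes, and RELB and NFKBIE have none. A match lay in at least 1 window of 7 of these 8 genes, RELA being the exception, whereas 13.3% of all 27305 symbols with a window had a match. Genes with several start sites have several windows, and 11.3% of the 35116 single windows matched. The broader pattern of GGG and CC separated by 5 bases of any kind, which includes every consensus match, occurred in 61.7% of symbols and in all 8 genes. A match is a run of letters and not a measured binding site. The stretches below show matches from these 7 genes. The feedback genes were chosen as known targets of NF-κB, so matches in them were likely beforehand. The subunits were likewise chosen by name, and NFKB2 has several windows, so the number of genes with a match is no test. Not shown are matches in a further window of NFKBIZ and of NFKB2, and those in REL and NFKB2 that overlap a match shown. Each stretch is 30 bases of the coding strand, 5′ to 3′, with the matching 10 bases in capitals and the coordinates of the whole stretch.
NFKBIA, chr14:35404811-35404840 (minus strand): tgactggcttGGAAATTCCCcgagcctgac
NFKBIZ, chr3:101827757-101827786 (plus strand): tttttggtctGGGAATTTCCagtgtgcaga
TNFAIP3, chr6:137867182-137867211 (plus strand): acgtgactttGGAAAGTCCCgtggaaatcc
TNFAIP3, chr6:137867194-137867223 (plus strand): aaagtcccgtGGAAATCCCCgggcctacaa
BIRC3, chr11:102317275-102317304 (plus strand): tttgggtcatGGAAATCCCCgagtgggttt
BIRC3, chr11:102317339-102317368 (plus strand): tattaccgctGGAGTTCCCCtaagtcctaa
NFKB1, chr4:102501300-102501329 (plus strand): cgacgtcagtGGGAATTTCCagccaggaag
REL, chr2:60881517-60881546 (plus strand): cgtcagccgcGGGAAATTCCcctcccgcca
NFKB2, chr10:102394461-102394490 (plus strand): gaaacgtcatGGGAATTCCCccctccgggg
NFKB2, chr10:102394490-102394519 (plus strand): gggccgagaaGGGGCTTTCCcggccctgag

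The matches of NFKBIA, NFKBIZ, BIRC3 and NFKB1 shown above lie upstream of the gene as GENCODE 29 annotates it. Those of REL, TNFAIP3 and NFKB2 shown above lie inside an annotated exon of the same gene, because GENCODE records starts further upstream than the RefSeq start used for the window. The NFKBIA match begins 81 bases before the start site, that of NFKB1 49 bases before it and that of REL 47 bases before it. To give the wider context of the best-known of these promoters, the 250 bases before the NFKBIA start are shown with the match in capitals.
NFKBIA, chr14:35404750-35404999 (minus strand): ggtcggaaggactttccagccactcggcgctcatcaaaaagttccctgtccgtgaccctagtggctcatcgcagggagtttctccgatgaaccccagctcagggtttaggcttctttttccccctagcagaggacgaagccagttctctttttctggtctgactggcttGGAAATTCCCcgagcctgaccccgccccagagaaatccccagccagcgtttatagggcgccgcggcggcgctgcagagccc

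Libraries are named by their titles, and the treatment field of the labels names a different sort in each of them (the library titled Violet is un-gated there, and the library titled Bulk is Claret). Total reads ranged from 15508179 to 16976909, and 3 reads, the most that a count of 0 leaves possible, equal 0.177 to 0.190 CPM (reads scaled to a common library total). The summed level of 5 proliferation genes (MKI67, TOP2A, MCM2, CCNB1 and CDK1) was 1886 CPM in Bulk and 308 to 400.4 CPM in the slow-cycling libraries. All 5 markers expected in this line (VIM, CD44, ITGB1, KRT18 and FN1) were read in each library, at a summed 448 to 592 FPKM (reads scaled to gene length and library total), against 2.26 to 3.04 FPKM for ESR1, PGR, CDH1, EPCAM and GATA3, of which PGR had 0 reads in each library. A library of sorted cells gives the mean over its cells, so more cells using a gene and more RNA per cell cannot be told apart, and whether slower division itself accompanies a difference below was not tested.

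None of the 10 genes was called different from Bulk in any slow-cycling library. A call needed a log2 ratio of 1 or more in size and an adjusted p under 0.05, in a two-sided exact binomial test on the reads of 2 libraries with Benjamini-Hochberg adjustment over 14585 genes, which compares those libraries and not the conditions. By this rule 17.9% of all genes were called for the Claret library, 19.5% for eGFP and 18.3% for Violet. Calls in all 3 libraries were made for 8.36% of genes on the higher side and 4.92% on the lower side, and 75.7% of genes were called in none. The nearest to the threshold was RELB in eGFP, whose log2 ratio of 0.98 became 1.01 and was called when libraries were scaled by total reads alone. Below that threshold the subunits parted in direction. NFKB2 and RELB lay above Bulk and NFKB1 and REL below it in each slow-cycling library, each with a 95% exact interval of the read ratio that left out 0. Such intervals lay above 0 in all 3 libraries for 27.7% of all genes and below 0 for 30.5%, so these 4 genes are not unusual for this data set. All intervals cover counting error only.

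**Figure D1:**
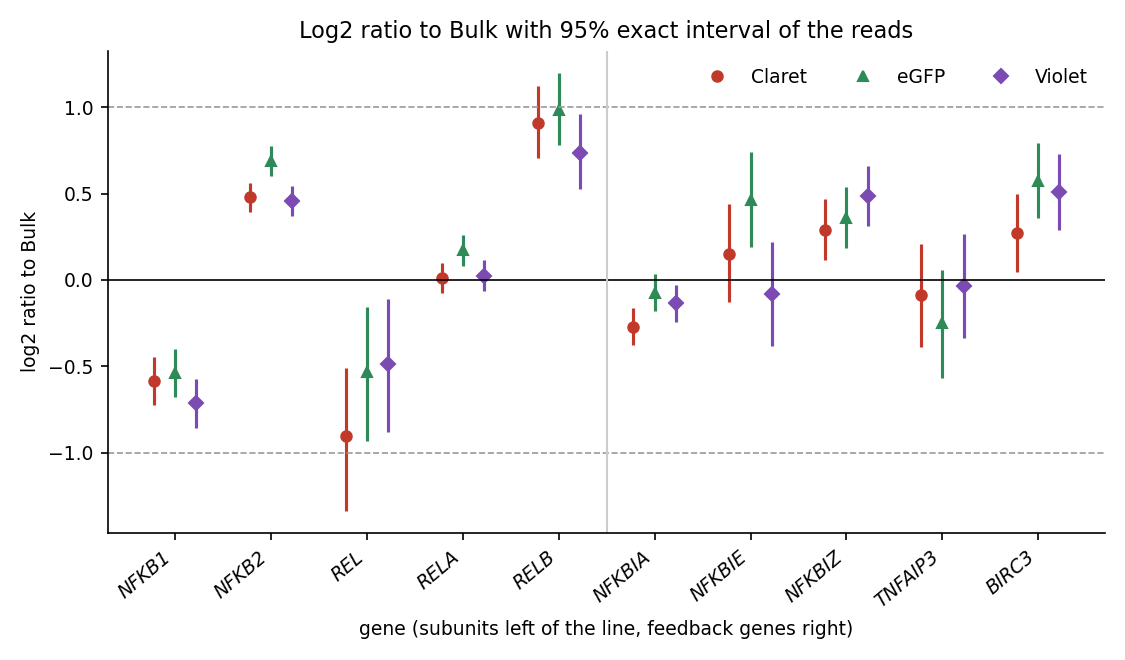
Log2 ratio to Bulk (vertical axis) of each of the 10 genes in the Claret, eGFP and Violet libraries, with bars for the 95% exact interval of the read ratio and dashed lines at the 2-fold threshold. RELB is highest at 0.74 to 0.98, REL and NFKB1 lie between -0.90 and -0.49, and no point passes a dashed line.

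NFKB2 (ENSG00000077150, chromosome 10, 102394110 to 102402529, GRCh38), the source of p52, had 1832 reads in Bulk against 2746 in Claret, 2975 in eGFP and 2519 in Violet. Bulk was the lowest of the 4, and eGFP was the highest. NFKB2 had a log2 ratio to Bulk of 0.48 in Claret (95% interval 0.39 to 0.56), 0.69 in eGFP (0.60 to 0.77) and 0.46 in Violet (0.37 to 0.54), with adjusted p of 2.78e-24 or less in the exact binomial test. RELB (ENSG00000104856, chromosome 19, 45001430 to 45038198), the partner of p52, had 284 reads in Bulk against 575 in Claret, 568 in eGFP and 476 in Violet, so that Bulk stood below the other libraries. Its log2 ratio was 0.91 (0.70 to 1.12), 0.98 (0.78 to 1.20) and 0.74 (0.53 to 0.96), and 12.4% to 17.4% of all genes had a higher ratio in the same library. The transcripts of these genes are rich in G and C (62.1% for NFKB2 and 65.2% for RELB), and ratios over all genes moved with that property, the median log2 ratio being -0.11 to -0.076 in the 1459 genes of lowest GC content and 0.18 to 0.21 in the 1458 of highest. After a correction for GC content, NFKB2 stood at 0.31, 0.50 and 0.31, and RELB at 0.66, 0.72 and 0.52, in Claret, eGFP and Violet.

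NFKB1 (ENSG00000109320, chromosome 4, 102501329 to 102617302), the source of p50, had 1040 reads in Bulk against 746 in Claret, 721 in eGFP and 635 in Violet. Here Bulk was the highest library and Violet the lowest. The log2 ratio was -0.58 (-0.72 to -0.45) in Claret, -0.54 (-0.68 to -0.40) in eGFP and -0.71 (-0.86 to -0.57) in Violet. A GC correction left these at -0.59, -0.55 and -0.73. REL (ENSG00000162924, chromosome 2, 60881521 to 60931610), the subunit best known from lymphoid cells, had the lowest FPKM of the 10 genes, with 139 reads in Bulk against 79 (Claret), 96 (eGFP) and 99 (Violet). Its log2 ratio was -0.90 (-1.34 to -0.51), -0.54 (-0.94 to -0.16) and -0.49 (-0.88 to -0.11), and these wide intervals overlap. Of the 31-base words in the REL transcripts, 45.9% also occur in transcripts of other genes, and AC010733.2, an annotated non-coding gene on the same strand with 0 reads in each library, covers 5702 of its exonic bases. How reads in such stretches were assigned is not given in the sources used here, so the REL counts are uncertain.

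RELA (ENSG00000173039, chromosome 11, 65653596 to 65663094), the main activating subunit of the canonical arm, had 1981 reads in Bulk against 2150 in Claret, 2246 in eGFP and 2021 in Violet. Its log2 ratio was 0.012 (-0.077 to 0.10) in Claret, 0.17 (0.083 to 0.26) in eGFP and 0.025 (-0.065 to 0.12) in Violet. Only the eGFP interval left out 0, and under the GC correction the values became -0.15, -0.011 and -0.11. A non-coding gene on the other strand, AP001362.2, shares 9 exonic bases with RELA and had 32 to 67 reads. Shares of reads within a library need no scaling between libraries, so RELB and REL were set against RELA and NFKB2 against NFKB1. How level RELA is can be seen only after scaling, and in eGFP it lay above Bulk, so a share can move with either gene. RELB made up 12.5% of the reads of RELA and RELB together in Bulk (95% exact interval 11.2 to 14.0), 21.1% in Claret (19.6 to 22.7), 20.2% in eGFP (18.7 to 21.7) and 19.1% in Violet (17.5 to 20.7). NFKB2 made up 63.8% of the reads of NFKB1 and NFKB2 in Bulk (62.0 to 65.5), 78.6% in Claret (77.2 to 79.99), 80.5% in eGFP (79.2 to 81.8) and 79.9% in Violet (78.4 to 81.3). The share of REL lay the other way, at 6.56% of the reads of REL and RELA in Bulk (5.54 to 7.70) beside 3.54% in Claret (2.82 to 4.398), 4.10% in eGFP (3.33 to 4.98) and 4.67% in Violet (3.81 to 5.66), and the interval of Violet overlaps that of Bulk. For RELB and NFKB2 the interval of Bulk lay below those of the slow-cycling libraries, and the slow-cycling intervals overlapped each other. The pairs were chosen by hand, and how often other gene pairs separate in this way was not computed. Since 27.7% of all genes had intervals above 0 in all 3 libraries and 30.5% below 0, such a separation may be common.

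Levels between genes were compared on the deposited FPKM, which allows for length. In Bulk, NFKBIA was the most abundant of the 10 at 40.9 FPKM, followed by NFKB2 at 26.3, RELA at 23.3, NFKB1 at 10.7 and RELB at 6.02. In each slow-cycling library RELB (9.77 to 11.7 FPKM) stood above NFKB1 (6.32 to 7.21 FPKM), the reverse of the order in Bulk. NFKB2 was at 36.1 FPKM in Claret and 41.5 in eGFP, above NFKBIA at 33.3 and 38.1, while in Violet the pair stood at 35.0 and 36.1. The lower places were held by NFKBIZ (5.10 to 6.94 FPKM), NFKBIE (4.39 to 6.47), BIRC3 (2.46 to 3.60), TNFAIP3 (1.96 to 2.38) and REL (0.353 to 0.679). NFKBIZ and NFKBIE changed places between libraries, as NFKBIE was the higher in eGFP and NFKBIZ elsewhere, but in eGFP their levels of 6.47 and 6.43 FPKM are within the counting error of NFKBIE, and so are those of NFKB2 and NFKBIA in Violet within theirs.

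**Figure D2:**
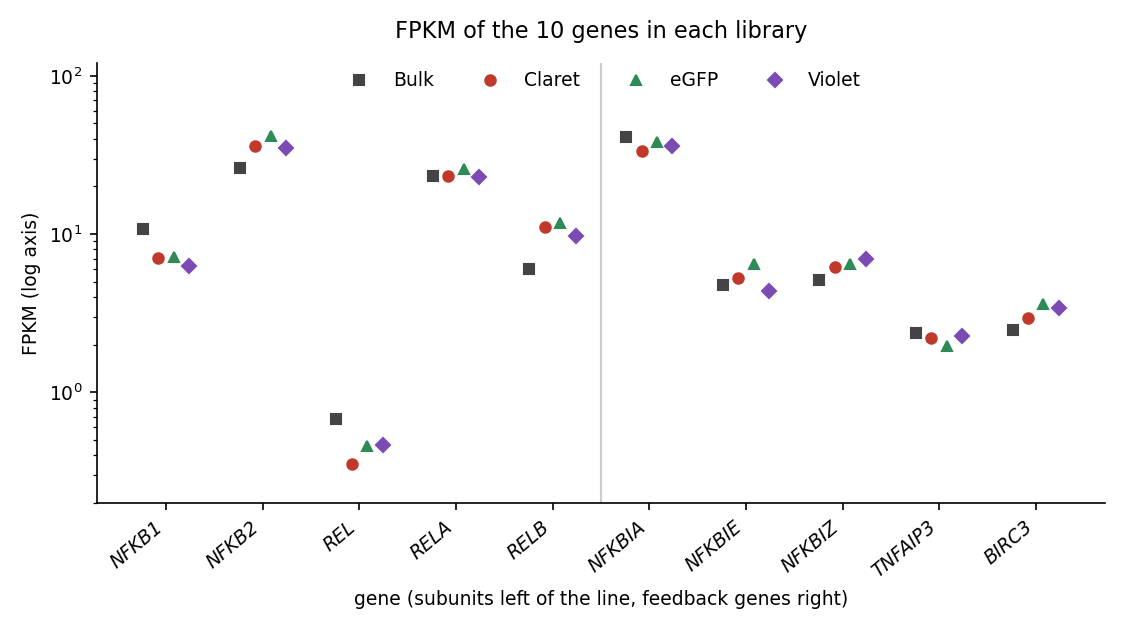
Deposited FPKM (vertical axis, log scale) of the 10 genes, 1 point per library. NFKBIA, NFKB2 and RELA lie between 23.0 and 41.5 FPKM in every library, REL lies below 1 FPKM, and RELB and NFKB1 swap order between Bulk and the other libraries.

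As a share of the summed FPKM of the 5 subunits, the non-canonical pair NFKB2 and RELB held 48.2% in Bulk, whereas it held 60.7% (Claret), 61.5% (eGFP) and 60.01% (Violet) in the slow-cycling libraries. NFKB1 alone held 15.96% in Bulk and 8.32% to 9.03% in the others. RELA held 34.8% in Bulk and 29.7% to 30.9% elsewhere, although its own FPKM was 23.3 in Bulk and 23.0 to 25.7 elsewhere. The pool itself grew from 67.0 FPKM to between 74.6 and 86.6 FPKM. These are shares of transcript and do not measure processed p50 or p52 protein.

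**Figure D3:**
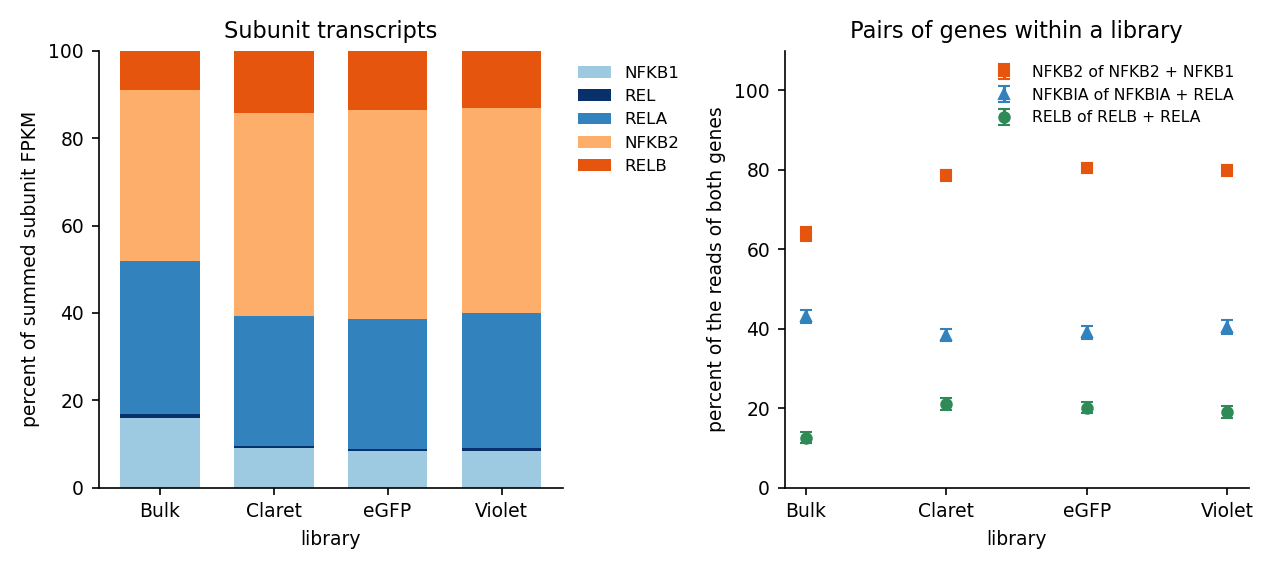
Left, each subunit as a percent of the summed subunit FPKM in each library, in which NFKB2 and RELB together hold 48.2% for Bulk and 60.01% to 61.5% for the slow-cycling libraries. Right, the percent of reads held by the first gene of 3 pairs, with 95% exact intervals.

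The log2 ratios of the feedback genes ranged from -0.27 to 0.57 over the 3 slow-cycling libraries, beside -0.90 to 0.98 for the subunits, of which RELA lay nearest to Bulk. NFKBIA (ENSG00000100906, chromosome 14, 35401511 to 35404749), the classical feedback inhibitor, had 1507 reads in Bulk against 1343 in Claret, 1443 in eGFP and 1375 in Violet. Bulk was the highest of the 4. Its log2 ratio was -0.27 (-0.38 to -0.17) in Claret, -0.073 (-0.18 to 0.032) in eGFP and -0.14 (-0.24 to -0.030) in Violet, and the adjusted p of the exact binomial test in eGFP was 0.22. Set against RELA in the same library, NFKBIA held 43.2% of the reads of both genes in Bulk (41.6 to 44.9), 38.4% in Claret (36.8 to 40.1), 39.1% in eGFP (37.5 to 40.7) and 40.5% in Violet (38.8 to 42.2). The interval of Violet overlaps that of Bulk, and those of Claret and eGFP do not. In eGFP the share moves with RELA as well, whose own log2 ratio there was 0.17 (0.083 to 0.26), while the interval of NFKBIA included 0. Against NFKB2, which itself lay above Bulk in each slow-cycling library, the share of NFKBIA was 45.1% in Bulk (43.4 to 46.8). It was 32.7% to 35.3% in the slow-cycling libraries, whose intervals all lay below that of Bulk. How often other gene pairs separate in this way was not computed. TNFAIP3 (ENSG00000118503, chromosome 6, 137867188 to 137883312) had 187 reads in Bulk against 189 in Claret, 158 in eGFP and 183 in Violet. No difference of TNFAIP3 was detectable at this depth, with log2 ratios of -0.090 (-0.39 to 0.21), -0.25 (-0.57 to 0.060) and -0.034 (-0.34 to 0.27). The antisense gene AL357060.1, which shares 95 exonic bases with TNFAIP3, had 4 to 8 reads.

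BIRC3 and NFKBIZ were the feedback genes that lay above Bulk in each slow-cycling library. BIRC3 (ENSG00000023445, chromosome 11, 102317450 to 102339403) had 288 reads in Bulk against 374 in Claret, 432 in eGFP and 411 in Violet. BIRC3 had a log2 ratio of 0.27 (0.045 to 0.50), 0.57 (0.36 to 0.79) and 0.51 (0.29 to 0.73). NFKBIZ (ENSG00000144802, chromosome 3, 101827991 to 101861022), which acts in the nucleus on a subset of target genes, had 468 reads in Bulk against 617 in Claret, 606 in eGFP and 658 in Violet. For NFKBIZ the log2 ratio was 0.29 (0.12 to 0.47), 0.36 (0.19 to 0.54) and 0.49 (0.31 to 0.66). Violet was thus the highest library for NFKBIZ, whereas it was not for BIRC3, and the intervals of the 3 libraries overlap for both genes. NFKBIE (ENSG00000146232, chromosome 6, 44258166 to 44265788) had 192 reads in Bulk against 230 in Claret, 267 in eGFP and 182 in Violet. NFKBIE had a log2 ratio of 0.46 in eGFP (0.19 to 0.74), 0.15 in Claret (-0.13 to 0.44) and -0.080 in Violet (-0.38 to 0.22), and only that of eGFP had an interval above 0. Like NFKB2 and RELB, NFKBIE has GC-rich transcripts (61.0%), and the GC correction placed it at 0.0086, 0.29 and -0.20 in Claret, eGFP and Violet.

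Subunits and feedback genes did not separate as groups. The median log2 ratio of the 5 subunits was 0.012 (Claret), 0.17 (eGFP) and 0.025 (Violet). That of the 5 feedback genes was 0.15, 0.36 and -0.034, and the medians over all genes were -0.0066, -0.0098 and 0.0015. The feedback median stood 0.14 and 0.19 above the subunit median in Claret and eGFP and at -0.060 relative to it in Violet, with no test because 10 genes chosen by name are not replicates. These differences turned sign in each library under at least 1 alternative setting, to -0.092 (Claret) and -0.068 (eGFP) with a filter at 10 CPM and to 0.053 (Violet) with the GC correction. Summed by level, the feedback genes stood lower relative to the subunits in each slow-cycling library than in Bulk, against the direction of the medians in Claret and eGFP and along with it in Violet. The 5 feedback genes held 0.83 FPKM for each FPKM of subunits in Bulk, a ratio that was 0.64 (Claret), 0.65 (eGFP) and 0.71 (Violet) in the slow-cycling libraries. NFKBIA alone is 66.8% to 73.5% of the summed feedback FPKM, so that ratio follows NFKBIA and NFKB2, whereas the medians weigh each gene alike.

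The 3 slow-cycling libraries differed little from each other in these genes. None of the 10 was called between any pair of them, where the share of all genes called was 0.713% between Claret and eGFP, 0.788% between Claret and Violet and 0.932% between eGFP and Violet. The widest gap in these pairs was that of NFKBIE, whose log2 ratio of eGFP to Violet was 0.54 (0.27 to 0.83, adjusted p = 0.00131 in the exact binomial test). NFKB2 was higher in eGFP than in Claret by 0.21 (-0.21 for Claret against eGFP, -0.29 to -0.14) and than in Violet by 0.23 (0.16 to 0.31). RELA was likewise highest in eGFP, by 0.15 over Violet (0.058 to 0.23). For NFKBIZ and TNFAIP3 the log2 ratio of eGFP to Violet was -0.13 (-0.29 to 0.036) and -0.22 (-0.54 to 0.096), and both intervals include 0.

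Other genes of the pathway were taken by function from 7 lists of 77 genes, of which 69 passed the filter on low counts. Of these 69, the numbers called higher were 12 (Claret), 12 (eGFP) and 10 (Violet), against 11.2%, 11.9% and 11.3% of all genes, and 1, 2 and 1 were called lower, against 6.67%, 7.60% and 7.01%. Most of the called genes were ligands or target genes. The lists were chosen with earlier results of these data known, so where the calls fall is not a result about the pathway. Of 9 ligands 4 passed the filter, and 3 of these were called higher in each library, namely IL1A, IL1B and LTB. LTB and IL1B passed it only through the libraries in which they are high, IL1B falling just short of it in Bulk. IL1A, an activator of the canonical arm, went from 18 reads in Bulk to 208 in Claret, 229 in eGFP and 205 in Violet, an order of libraries kept in the values that follow. IL1B went from 16 reads to 115, 104 and 125. LTB, a ligand of the receptor LTBR that feeds the non-canonical arm, went from 3 reads to 24, 27 and 29, with log2 ratios of 2.29 (1.17 to 5.27), 2.54 (1.46 to 5.52) and 2.64 (1.58 to 5.63). TNF, the best-known ligand, and LTA, the other lymphotoxin gene, did not pass the filter, with at most 3 and 4 reads in a library. The fourth ligand that passed was not called.

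Among receptors 1 of 10 that passed the filter, TNFRSF1B, was called higher in each library, from 5 reads in Bulk to 26, 36 and 30. TNFRSF1B also passed only through the libraries in which it is high. TLR3 was called lower in eGFP at -1.02 and stood just short of the threshold in Claret at -0.99. None of the 10 IKK kinases and activators and none of the 3 other IκB proteins was called in any library. MAP3K14, which encodes NIK, and CHUK, which encodes the kinase that NIK activates, were, like IKBKB and IKBKG, chosen for mention after their values were seen. MAP3K14 had log2 ratios of -0.54, -0.45 and -0.54 and CHUK of -0.70, -0.77 and -0.88, so both lay below Bulk. IKBKB, which encodes the other catalytic IKK subunit, lay above Bulk at 0.36 (0.22 to 0.51), 0.47 (0.33 to 0.62) and 0.55 (0.40 to 0.69). IKBKG, whose counts are uncertain because the genome holds a near-identical partial copy, was at 0.49, -0.37 and 0.42. Of 14 adaptors and ubiquitin ligases 1 was called, RBCK1, which encodes HOIL-1 of the linear ubiquitin ligase complex, which went from 2314 reads to 9336, 8939 and 8132 (log2 ratios 1.91, 1.94 and 1.81). Of 10 further negative regulators 1 was called, ZFP36, which encodes an mRNA-destabilising protein, at 1.11, 1.33 and 1.20.

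Target genes outside the feedback group lay on both sides of Bulk. Of 20 such genes 18 passed the filter, of which 6, 6 and 4 were called higher in Claret, eGFP and Violet and 1 lower in each. Over all genes 11.2%, 11.9% and 11.3% were called higher and 6.67%, 7.60% and 7.01% lower, so the lower count is near the share over all genes. The higher counts are no result about target genes either, because the list was chosen with earlier results of these data known. PTGS2, which encodes the prostaglandin synthase COX-2, went from 105 reads in Bulk to 1153, 1381 and 1207 (log2 ratios 3.33, 3.68 and 3.50). ICAM1, a cell-adhesion receptor, went from 139 reads to 618, 795 and 776 (2.03, 2.49 and 2.46). CCL2, a chemokine that attracts monocytes, fell from 1779 reads to 389, 511 and 442 (-2.29, -1.81 and -2.01). The remaining members called in all 3 libraries were CXCL8 and BCL2A1, both higher. CXCL3, called higher in Claret and eGFP but not in Violet, passed the filter only through the libraries in which it is high. It had 14 reads in Bulk against 43, 33 and 22. Most of the list was not called, and its median log2 ratio was 0.18 (Claret), 0.38 (eGFP) and 0.52 (Violet), beside 0.15, 0.36 and -0.034 for the feedback genes. The difference between the lists was not tested.

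**Figure D4:**
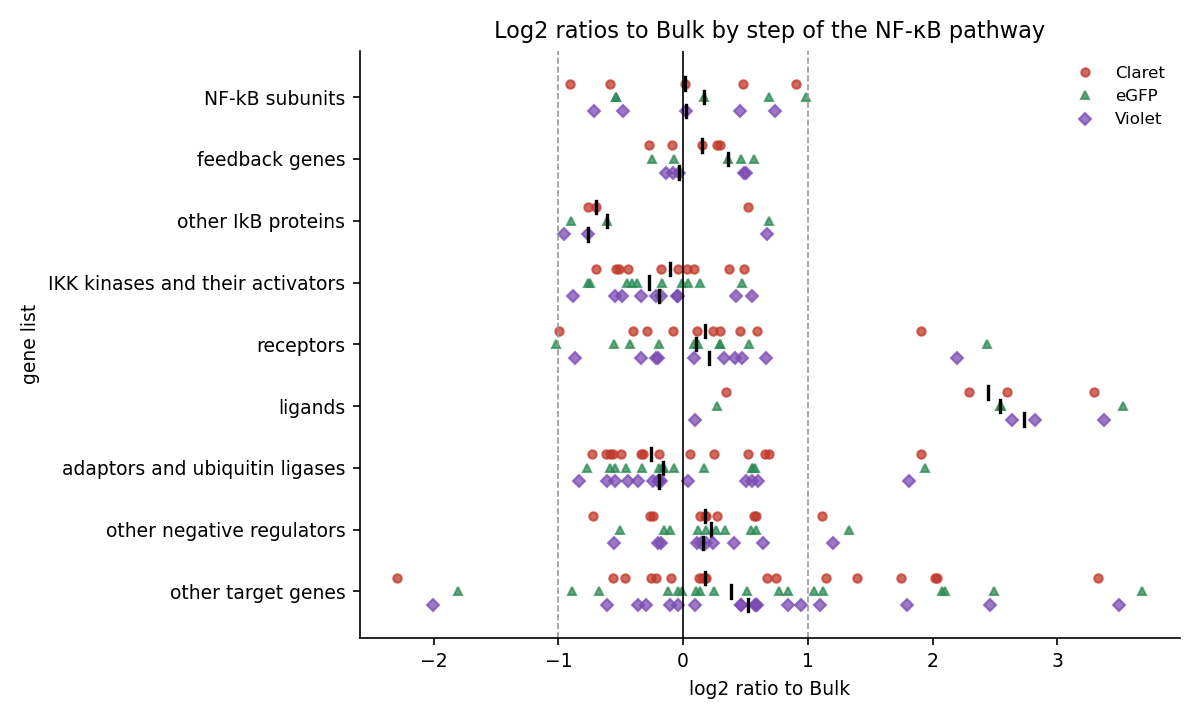
Log2 ratio to Bulk (horizontal axis) of each gene kept, by list, with 1 symbol per slow-cycling library, a black tick at the list median and dashed lines at the 2-fold threshold. Subunits and feedback genes stay within the dashed lines, while ligands and target genes reach 3.52 and 3.68.

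The genes most like RELB and REL, the members with the highest and lowest mean log2 ratio, were looked up among 9754 protein-coding genes of at least 10 CPM by Euclidean distance of centred log2 CPM over the 4 libraries. Those nearest to RELB were TRIM16 (distance 0.017), GALNT3 (0.039) and PARD6G (0.042). TRIM16 went from 338 reads in Bulk to 688 (Claret), 686 (eGFP) and 573 (Violet), with log2 ratios of 0.92, 1.01 and 0.75. Those nearest to REL were NRDE2 (0.099), KLHL25 (0.11) and C9orf3 (0.12). With 4 libraries, of which 3 resemble each other, such a likeness mainly reflects the step between Bulk and the rest.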

How the data were processed

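RNA was sequenced from 4 sorted samples, 1 per group. The authors deposited raw read counts per gene, whole numbers in the table, and a second deposited table of FPKM values, which are proportional to count over gene length within each library. HISAT2 2.0.5 and featureCounts 1.5.0-p3 are named in the submitters' processing notes. Use of strand and treatment of reads matching several genes are not given in the sources used here. Start and end of the 10 genes equal GENCODE 29 (GRCh38).

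Counts were scaled by TMM (edgeR 4.0.16, R 4.3.3), and genes with a mean of at least 1 CPM were kept (14585). Log2 ratios used a prior count of 2. Quasi-likelihood tests have no residual degrees of freedom here, so reads of 2 libraries were compared by exact binomial tests. These were tried on simulated counts with counting error alone, which cannot show how they behave with variation between sorted samples. Intervals are 95% Clopper-Pearson. Reads carry no molecular identifiers. For SOD2, which has 2 rows, the row with more reads was used. The named genes were the 10 members, up to 3 genes per pathway list called alike in all 3 libraries, and the nearest genes. Members and lists were chosen with earlier results of these data known. Alternatives were total-read scaling, DESeq2 1.42.0 size factors, other filters, a prior count of 0.5, log2(FPKM + 1), a GC correction (lowess), the fold alone, and groups from the treatment field.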

Additional observations from a re-analysis of the deposited data

How the results depend on the processing

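Of 8 alternatives that kept the titles, scaling by total reads alone changed the number of members called, from 0 to 1 (RELB in eGFP, 1.01). REL was at -0.31, -0.21 and -0.19 in Claret, eGFP and Violet on the scale log2(FPKM + 1), which understates ratios of low genes. The subunit median, which is the value of RELA, was in the same order -0.15, -0.011 and -0.11 under the GC correction, as was RELA itself, and 0.24, 0.43 and 0.24 with a filter at 10 CPM, which leaves out REL. That filter also turned the feedback minus subunit median to -0.092 in Claret and -0.068 in eGFP, and the GC correction turned it to 0.053 in Violet. RELA, and with it the subunit median, was at -0.0088 in Claret and -0.018 in Violet with DESeq2 size factors, and at -0.0085 and -0.017 on the scale log2(FPKM + 1). TNFAIP3 in Violet, which sets the feedback median there, was at 0.017 with total-read scaling. With groups from the treatment field, the library titled Violet is the un-gated one, so its eGFP and Violet groups are compared with a library titled slow-cycling. The 5 proliferation genes summed to 400.4 CPM in the library titled Violet and 1886 CPM in that titled Bulk. In this grouping the subunit median was -0.025 (Claret), 0.022 (eGFP) and 0.18 (Violet), and the feedback median in Violet was 0.062. In eGFP the feedback median was -0.14 and its difference from the subunit median -0.16. The number of all genes called higher than Bulk, 1639 for Claret, 1735 for eGFP and 1641 for Violet, was 615, 685 and 608 with a filter at 10 CPM and 589, 633 and 533 on the scale log2(FPKM + 1). On the lower side, the count of 973 for Claret was 634 and 619 in these settings, and that of 1108 for eGFP was 725 on the FPKM scale. The calls between slow-cycling libraries (45 higher and 59 lower for Claret and eGFP) came to 4 and 4 at 10 CPM and 73 and 94 by fold alone. Groups from the treatment field gave 1023 higher and 1641 lower genes for Claret, 33 and 82 for eGFP and 42 and 94 for Violet. No paired analysis was possible because each group holds 1 library and the labels give no replicate numbers. Depth limits REL, NFKBIE and TNFAIP3 most, with 79 to 267 reads per library.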

Other observations

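BIRC3 and BIRC2, neighbouring paralogs on chromosome 11 that encode the cIAP ligases, lay on opposite sides of Bulk. BIRC2 had 1870 reads in Bulk against 1614 in Claret, 1500 in eGFP and 1458 in Violet (log2 ratios -0.32, -0.33 and -0.36). BIRC3 held 13.3% of the reads of both genes in Bulk (95% exact interval 11.9 to 14.9), 18.8% in Claret (17.1 to 20.6), 22.4% in eGFP (20.5 to 24.3) and 21.99% in Violet (20.1 to 23.9). The interval of Bulk lay below the others, and how often other gene pairs separate in this way was not computed.

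NFKBIZ, which encodes the nuclear IκBζ, lay above Bulk and NFKBIA, which encodes the cytoplasmic inhibitor IκBα, below it. The interval of NFKBIA in eGFP (-0.18 to 0.032) included 0. NFKBIZ held 23.7% of their summed reads in Bulk (21.8 to 25.6) and 29.6% to 32.4% in the slow-cycling libraries. Among the other IκB genes, named after their values were seen, NFKBIB was at -0.70, -0.61 and -0.76 and NFKBID at -0.76, -0.90 and -0.96, while BCL3, which encodes a nuclear partner of p50 and p52, was at 0.52, 0.69 and 0.67. None of these 3 was called.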
